A study of Mus musculus and Acomys cahirinus with 25 samples.

Results

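Expression of 10 genes of mechanical signaling was followed in 25 RNA-seq libraries of mouse skin, most of them from wounds. The genes were the CCN genes Ctgf, Cyr61, Nov, Wisp1 and Wisp2, the coactivators Yap1 and Wwtr1, their targets Ankrd1 and Amotl2, and the ion channel Piezo1. They were chosen by symbol, and all 10 were found among the 24500 gene symbols counted in each library. The study measured how stiff healing wounds are and where new hair follicles form in them, and the genes were read here by layer, wound region, genotype and post-wound day (PWD). From laboratory mice (4 weeks old when wounded) there were 13 libraries at PWD14. From African spiny mice (Acomys cahirinus, 2 months old when wounded, wild type) there were 12. Epidermis and dermis of dorsal skin or wound were sequenced separately.

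The laboratory mouse libraries comprised 2 of wild-type wound center epidermis, 2 of wild-type wound margin epidermis, 5 of wild-type wound center dermis, 2 of wild-type wound margin dermis and 2 of K14-Cre-Twist1 wound center dermis. In K14-Cre-Twist1 mice a Cre driven by the Keratin 14 promoter removes the conditional Twist1 allele from keratinocytes, and Twist1+/+ mice were their controls. C57BL/6J was the wild-type strain of the study, and the strain of the Twist1 cross is not given in the sources used here. The 5 wild-type wound center dermis libraries fall into a first set of 2, shown in the study beside the margin, and a second set of 3, shown beside the mutant. The spiny mouse libraries were of whole wounds without a split into regions, except those of PWD0. The study describes PWD0 as the time before hair neogenesis, and its methods name skin or wound as the tissue harvested. Epidermis was represented by 1, 2, 2 and 1 libraries and dermis by 2, 1, 2 and 1 libraries at PWD0, 14, 21 and 28. The labels do not say which libraries came from the same animal, so p-values measure the spread between libraries.

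In the Hippo pathway a kinase cascade phosphorylates the coactivators YAP and TAZ (the products of Yap1 and Wwtr1) and keeps them in the cytoplasm. On a stiff matrix, in spread cells and under tension they enter the nucleus and, bound to TEAD transcription factors, switch on genes such as Ctgf, Cyr61, Ankrd1 and Amotl2. CCN proteins are secreted into the matrix, where they bind integrins and growth factors, and are known in skin from wound repair and fibrosis. Much of the regulation of YAP and TAZ acts on the proteins, which RNA counts do not measure. By the study's measurements the laboratory mouse wound was softer in its center than at its margin at PWD14. Spiny mouse wounds were softer at PWD14 than at PWD21. Stiffness was not measured in these libraries, and its part in the values below was not tested.

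The genes lie at separate places of the mouse genome (GRCm38, the build mm10 of the files, with RefSeq coordinates). Of the CCN genes, Ctgf (Ccn2) lies at chr10:24595442-24598683, Cyr61 (Ccn1) at chr3:145646971-145649985, Nov (Ccn3) at chr15:54745910-54753762, Wisp1 (Ccn4) at chr15:66891369-66923201 and Wisp2 (Ccn5) at chr2:163820752-163833146. Yap1 lies at chr9:7931999-8004638, Wwtr1 at chr3:57455644-57575910, Ankrd1 at chr19:36111965-36119844, Amotl2 at chr9:102717091-102733418 and Piezo1 at chr8:122481698-122551329. Other annotated genes overlap Ctgf (Gm15270), Wwtr1 (Gm16016) and Piezo1 (Ctu2 and Gm26497). The spiny mouse libraries do not mark strand, so that in them reads of a gene and of an overlapping gene cannot be told apart.

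The promoters of 3 known TEAD targets among the genes are shown because the letters that TEAD factors bind can be read in them. The 250 bases before a transcript start of each gene were taken from RefSeq (GRCm38.p6), 5′ to 3′ on the gene's strand, with the core motif GGAATG or its reverse complement CATTCC in capitals. The minus strand carries Cyr61 (promoter at chr3:145649986-145650235) and Ankrd1 (chr19:36119845-36120094), and the plus strand Amotl2 (chr9:102717554-102717803). The start used for Amotl2 lies inside the outermost bounds of the gene given above, which begin further upstream, so that its window overlaps the annotated gene.
Cyr61: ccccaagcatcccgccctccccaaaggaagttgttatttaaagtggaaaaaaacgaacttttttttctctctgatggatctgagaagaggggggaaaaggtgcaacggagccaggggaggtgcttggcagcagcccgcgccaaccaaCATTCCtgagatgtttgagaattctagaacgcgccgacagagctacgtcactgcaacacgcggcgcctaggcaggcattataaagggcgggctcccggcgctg
Ankrd1: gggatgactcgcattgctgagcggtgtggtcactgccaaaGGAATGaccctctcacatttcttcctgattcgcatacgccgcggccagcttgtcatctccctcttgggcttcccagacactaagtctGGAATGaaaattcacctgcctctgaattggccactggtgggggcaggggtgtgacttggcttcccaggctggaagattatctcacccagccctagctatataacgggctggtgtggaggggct
Amotl2: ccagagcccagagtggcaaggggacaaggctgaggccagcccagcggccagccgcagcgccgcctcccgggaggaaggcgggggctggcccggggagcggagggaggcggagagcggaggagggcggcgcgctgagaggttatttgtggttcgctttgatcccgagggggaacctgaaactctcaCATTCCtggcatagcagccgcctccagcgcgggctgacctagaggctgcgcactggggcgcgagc
The motif lay 103 bases before the start of Cyr61, 210 and 123 bases before that of Ankrd1 and 65 bases before the start used for Amotl2. Promoter entries were found for 6 of the 10 genes, and 5 of the 6 held the motif on either strand, the others being Yap1 and Wwtr1, while the Piezo1 promoter did not hold these letters. Of all 27025 genes with promoters of this length, 14.4% held it in at least 1 of them. Entries for Ctgf, Nov, Wisp1 and Wisp2 were not found among the promoters used here. These matches are letters in a window and were not tested for binding.

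Reads on genes numbered from 19413261 to 86532134 in the laboratory mouse libraries and from 5669760 to 34751956 in the spiny mouse libraries. Expression is given as CPM, the counts of a gene per 1000000 reads on all genes of the library. The smallest amount taken as detectable, 3 counts, corresponded to at most 0.155 CPM in the laboratory mouse and 0.529 CPM in the spiny mouse, and covers counting error only. Spiny mouse reads were aligned to the laboratory mouse genome, and low alignment quality set aside 38.0% to 60.5% of their reads against 23.3% to 34.4% in the laboratory mouse, so levels were not compared between the species. The summed level of 14 keratinocyte markers was between 44669 and 218124 CPM in the 10 epidermis libraries, and that of 15 fibroblast markers between 75724 and 171501 CPM in the 15 dermis libraries. The second K14-Cre-Twist1 dermis library stood apart with 37860 CPM of keratinocyte markers, against 1203 CPM in the first and 126 to 5083 CPM in the wild-type dermis libraries of the laboratory mouse. The first was also above the second set of wild-type center libraries, at 139, 126 and 220 CPM, with which the mutant was compared. In bulk tissue, fewer cells of a type and less RNA per cell cannot be told apart.

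**Figure D1:**
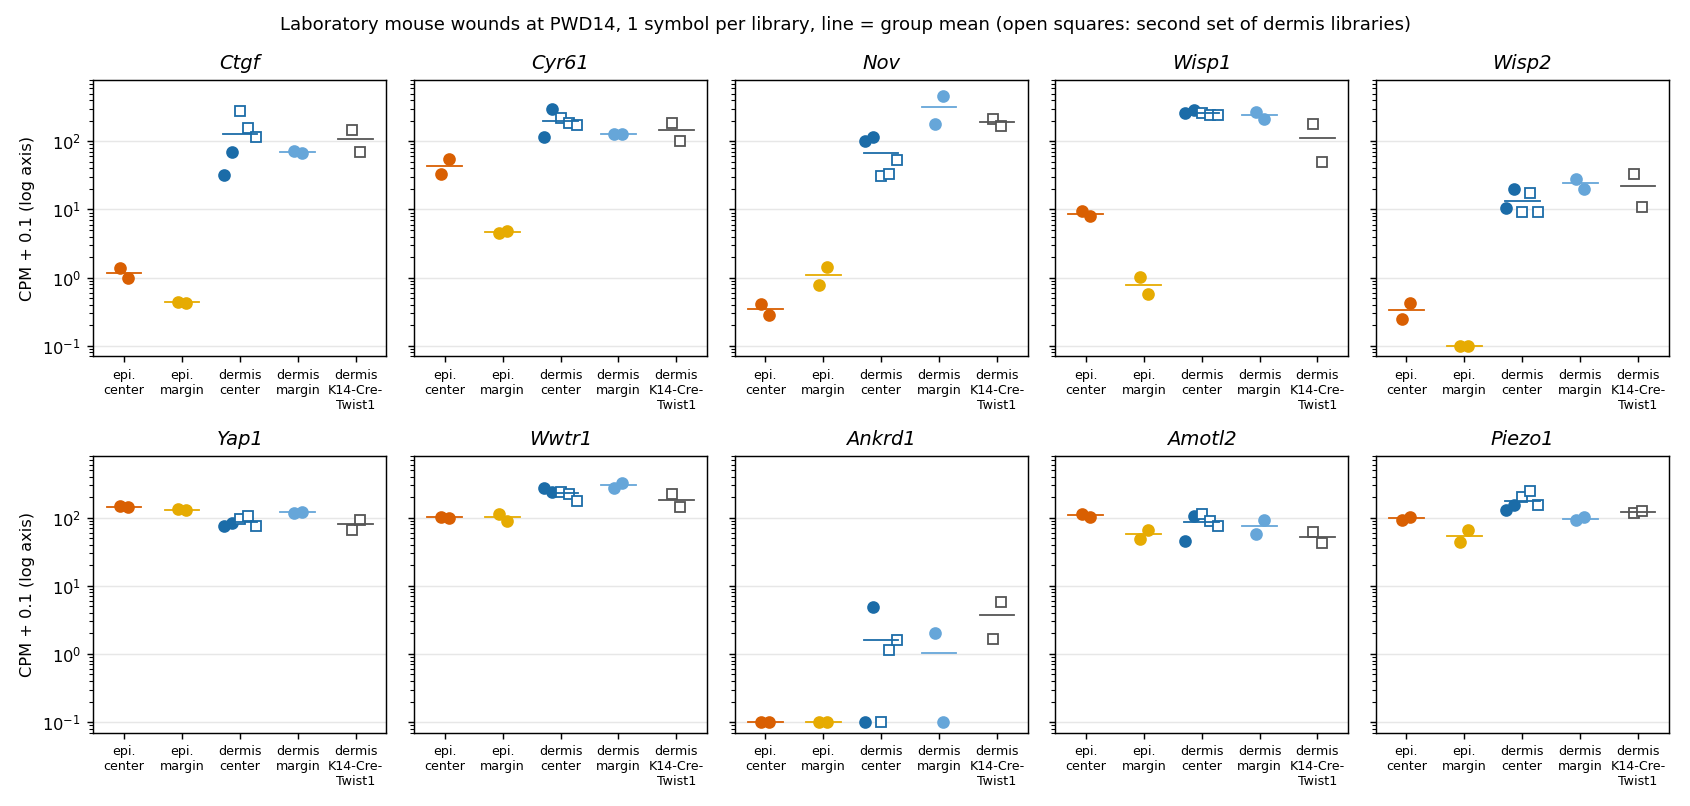
CPM of the 10 genes in each laboratory mouse library at PWD14, plotted as CPM + 0.1 on a log axis, with 1 symbol per library and a line at each group mean. Open squares are the second set of dermis libraries. Ctgf, Nov, Wisp1 and Wisp2 stand far lower in epidermis than in dermis, and Cyr61 stands lower by less in the center. Cyr61 and Wisp1 are higher in center than in margin epidermis, and Ankrd1 is at 0 in all 4 epidermis libraries.

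Center and margin of the laboratory mouse wound were compared first in epidermis, since new hairs form in the center, the softer region. The secreted CCN genes Cyr61 and Wisp1 were higher in the wound center, by 9.003-fold and 13.2-fold. The coactivator Yap1 differed little between the regions (log2 fold change 0.04), as did Wwtr1 (-0.13). Nov had the opposite sign to the other CCN genes without passing the test. Fold changes are center over margin from edgeR's quasi-likelihood test, with the standard error (SE) and the p-value adjusted over all 14165 genes tested (FDR).

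Cyr61 codes for a matricellular protein that binds integrins and is induced early in wounds. It measured 32.7 and 54.0 CPM in the center libraries and 4.36 and 4.65 CPM in the margin libraries. The center libraries were both above the margin libraries, and the log2 fold change was 3.17 (SE 0.37, FDR 0.0369). Wisp1, a CCN gene first known as a target of Wnt signaling, measured 9.32 and 7.85 CPM in the center and 0.907 and 0.474 CPM in the margin. It too was higher in both center libraries, with a log2 fold change of 3.72 (SE 0.52, FDR 0.0427). These FDRs lay close to the threshold of 0.05. Without center replicate 2 the FDR of Cyr61 was 0.0554 and that of Wisp1 0.0907, and without center replicate 1 that of Wisp1 was 0.119. With the quasi-likelihood estimate of edgeR 3 they were 0.0687 and 0.0923.

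Ctgf, a CCN gene widely used as a readout of YAP activity, was low in epidermis, at 1.27 and 0.886 CPM in the center and 0.340 and 0.324 CPM in the margin (log2 fold change 1.64, SE 0.68, FDR 0.215). Nov measured 0.309 and 0.181 CPM in the center and 0.680 and 1.32 CPM in the margin (log2 fold change -2.20, SE 0.76, FDR 0.167). Wisp2 was listed at 0.147 and 0.326 CPM in the center and at 0 in both margin libraries and, like Ankrd1, which was at 0 in all 4, had too few counts to be tested. These 4 genes were thus little expressed in this layer.

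Amotl2, which codes for an angiomotin protein that binds YAP and is itself a YAP target, measured 111 and 104 CPM in the center and 48.6 and 66.2 CPM in the margin (log2 fold change 0.81, SE 0.22, FDR 0.126). Piezo1, a channel opened by membrane stretch, measured 92.6 and 103 CPM in the center and 44.0 and 65.1 CPM in the margin (log2 fold change 0.75, SE 0.24, FDR 0.155). Both genes were higher in each center library than in each margin library but did not pass the adjusted threshold by edgeR. By DESeq2 Amotl2 did (FDR 0.0334). A fit without margin replicate 1 or 2 took its spread from the center libraries alone, so no call is drawn from it. The margin libraries differed more from each other than the center libraries did (chi-square per degree of freedom 394 against 36.1). Yap1 measured 148 and 142 CPM in the center and 132 and 129.7 CPM in the margin, and Wwtr1 measured 103 and 98.5 CPM and 115 and 88.8 CPM. The ranges of Wwtr1 overlapped, and those of Yap1 lay close together.

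In all, 2 of the 8 genes tested passed the FDR threshold, both higher in the center, where 1.24% of all genes tested passed in either direction, 0.882% higher and 0.360% lower. At an unadjusted p under 0.05 there were 5 of 8, against 23.5% of all genes, and in 7 of 8 the regions did not overlap, against 59.0%. The median log2 fold change of the 8 genes was 0.78, and that of all genes -0.02. Markers of some other cell types also differed between the regions. The summed fibroblast markers measured 5983 and 4979 CPM in the center and 2360 and 939 CPM in the margin epidermis, with 3 of 15 higher in the center by FDR and at most 1 of them at 0 in any library. The 10 endothelial markers summed to 41.8 and 30.3 CPM in the center and 7.09 and 1.72 CPM in the margin, and none passed the FDR threshold by edgeR while 9 had an unadjusted p under 0.05. The 8 mural and smooth muscle markers summed to 107 and 87.7 CPM in the center and 19.2 and 11.1 CPM in the margin, with 2 higher by FDR. The 10 leukocyte markers differed little, at 128 and 129 CPM against 121 and 97.0 CPM. Cyr61, Wisp1 and Ctgf were all expressed more highly in dermis, and the part of dermal RNA in the center values was not tested.

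Other genes of the pathway were counted from lists chosen for this purpose. Of 17 tested genes of a YAP target signature, 1 was higher in the center, the receptor kinase Axl (83.3 against 23.3 CPM, log2 fold change 1.74, FDR 0.0369). Of 18 genes of the SRF pathway and the contractile apparatus, which answer to actin tension, 2 were higher, smooth muscle actin Acta2 (42.5 against 5.59 CPM, log2 fold change 2.81, FDR 0.0367) and Tagln (7.42 against 0.297 CPM, log2 fold change 4.64, FDR 0.0394). Acta2 and Tagln are also markers of smooth muscle. None of 15 Hippo core genes, 12 TEAD genes and cofactors and 11 other mechanosensitive channels passed by edgeR, where 1.24% of all genes did. At an unadjusted p under 0.05, which 23.5% of all genes had, 1 Hippo core gene was lower and 0 were higher. Of the TEAD genes and cofactors 2 were higher and 4 lower at that p, and of the channels 3 and 4. The YAP targets had 6 higher and 3 lower, and the SRF and contractile genes 10 higher and 0 lower.

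In dermis, the same comparison used the first set of center libraries and gave no gene of the 10 that passed the FDR threshold, where 0.850% of 14698 genes tested passed. Of the 10, 4 had an unadjusted p under 0.05, against 15.8% of all genes, and by DESeq2 1 passed, Nov. The median log2 fold change of the 10 genes was -0.02, and that of all genes -0.03. Nov, whose protein CCN3 often opposes the actions of Ctgf, measured 99.9 and 114 CPM in the center and 182 and 465 CPM in the margin. It was lower in both center libraries, with a log2 fold change of -1.49 (SE 0.34, FDR 0.0842), and with all 5 wild-type center libraries the log2 fold change was -2.12 (FDR 0.0269). A fit without margin replicate 1 left 1 margin library, and no call is drawn from it. The margin dermis libraries held more keratinocyte markers (2633 and 5083 CPM) than the center libraries of this set (867 and 634 CPM), 7 of 14 lower in the center by FDR, and the part of this in the Nov values was not tested.

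The remaining genes differed less between center and margin dermis. Yap1 measured 76.4 and 83.1 CPM in the center and 118 and 122 CPM in the margin (log2 fold change -0.50, SE 0.21, FDR 0.271). Piezo1 measured 129 and 152 CPM in the center and 91.9 and 100.5 CPM in the margin (log2 fold change 0.63, SE 0.20, FDR 0.203). The regions did not overlap in these genes and Nov, as in 45.3% of all genes tested.

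Cyr61 measured 117 and 297 CPM in the center and 126 CPM in both margin libraries (log2 fold change 0.78, SE 0.33, FDR 0.283). Ctgf measured 31.6 and 69.8 CPM in the center and 72.3 and 68.2 CPM in the margin (log2 fold change -0.40, SE 0.33). In the second set of wild-type center libraries Ctgf measured 276, 156 and 116 CPM, all above the first set, and with all 5 center libraries its log2 fold change turned to 1.08, without passing the test. Nov went the other way, at 31.1, 32.5 and 53.2 CPM in the second set. Set and the day, animals or preparation behind it cannot be told apart, so a center value of Ctgf or Nov depended on the set.

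Wisp1 was among the steadiest of the 10 genes in wild-type dermis, between 243 and 284 CPM in the 5 center libraries and at 273 and 215 CPM in the margin. Wwtr1 measured 275 and 239 CPM in the center of the first set and 269 and 323 CPM in the margin. Wisp2, a CCN protein without the last domain of the family, measured 10.3 and 20.1 CPM in the center and 28.2 and 19.8 CPM in the margin. The ranges of these genes overlapped between the regions.

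Amotl2 measured 45.0 and 105 CPM in the center and 57.8 and 93.7 CPM in the margin. Ankrd1, a nuclear ankyrin repeat protein of muscle that is also a standard YAP target, was barely detected, at 0 and 4.84 CPM in the center and 1.89 and 0 CPM in the margin. Both overlapped between the regions. None of the genes in the pathway lists passed the FDR threshold by edgeR in this comparison. At an unadjusted p under 0.05 there were 1 of 15 Hippo core genes, 0 of 12 TEAD genes and cofactors, 3 of 17 YAP targets, 0 of 18 SRF and contractile genes and 2 of 10 channels, against 15.8% of all genes.

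Whether the center-margin difference itself differed between the layers was tested as an interaction in a single fit. Cyr61 (difference of the log2 fold changes, epidermis minus dermis, 2.52, SE 0.56, FDR 0.0338) and Wisp1 (3.60, SE 0.47, FDR 0.0031) passed, 2 of the 10 genes, where 3.48% of 15531 genes passed. The median difference of all genes was 0.31. The difference of Wisp1 kept its FDR under 0.05 whichever single library was left out. That of Cyr61 did not, with FDRs of 0.163 without epidermis center replicate 2, 0.081 and 0.0658 without epidermis margin replicates 1 and 2, 0.106 without dermis center replicate 1, and 0.185 and 0.176 without dermis margin replicates 1 and 2. Center-margin differences of the other genes were not shown to differ between the layers, and those of Ankrd1 and Wisp2 rest on epidermis groups at 0.

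**Figure D2:**
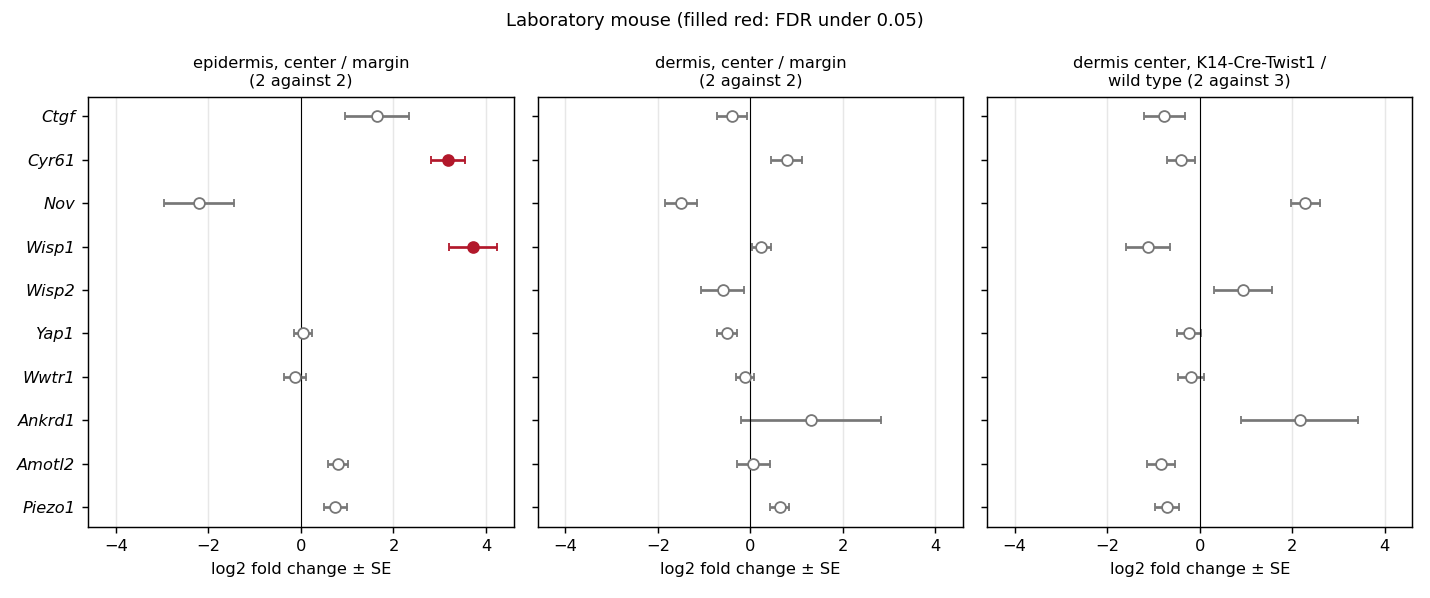
Log2 fold change with its standard error (edgeR) of each gene in the 3 laboratory mouse comparisons within a layer. Filled red points passed an FDR of 0.05, and genes too low to be tested have no point. Only Cyr61 and Wisp1 in epidermis are filled, while Nov lies at -1.49 in dermis center over margin and at 2.29 in K14-Cre-Twist1 over wild type.

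The dermis under epidermis without Twist1 was compared with wild-type center dermis of the second set. Twist1 itself measured 73.4 and 44.0 CPM in the mutant and 57.7, 36.3 and 105 CPM in the wild-type dermis libraries. Since K14-Cre acts in keratinocytes, dermis does not check the genotype labels. No gene of the 10 passed the FDR threshold, where 0.0565% of 14163 genes did, and 4 had an unadjusted p under 0.05, against 11.5% of all genes. By DESeq2 1 of the 10 passed, Nov. The median log2 fold change of the 10 genes was -0.32, and that of all genes -0.07.

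Nov measured 215 and 166 CPM in K14-Cre-Twist1 dermis and 31.1, 32.5 and 53.2 CPM in wild type. Both mutant libraries were above all 3 wild-type libraries, with a log2 fold change of 2.29 (SE 0.31, FDR 0.106). Without mutant replicate 2, the library richest in keratinocyte markers, the log2 fold change of Nov was 2.49. It was 2.03 without mutant replicate 1, and each of these fits left 1 mutant library. Against all 5 wild-type center libraries, the first set of which measured 99.9 and 114 CPM, both mutant libraries were still higher, and the log2 fold change was 1.57 (FDR 0.130). Both mutant libraries held more keratinocyte markers (1203 and 37860 CPM) than the wild-type libraries of the second set (139, 126 and 220 CPM). Of 13 such markers tested by edgeR, 1 was higher in the mutant by FDR and 11 at an unadjusted p under 0.05. The part of this in the Nov values was not tested.

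Of the other 9 genes, 7 had a log2 fold change below 0 and Wisp2 and Ankrd1 above it. Wisp1 measured 178 and 48.9 CPM in the mutant and 259.8, 243 and 244 CPM in wild type (log2 fold change -1.12, SE 0.48, FDR 0.423). The low value of Wisp1 was that of the library richest in keratinocyte markers, whose fibroblast markers summed to 91800 CPM, the lowest among the laboratory mouse dermis libraries. Without that library the log2 fold change was -0.45, and without the other mutant library -2.40.

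Amotl2 measured 62.3 and 41.8 CPM in the mutant and 113, 90.6 and 75.6 CPM in wild type (log2 fold change -0.84, SE 0.31, FDR 0.372). Piezo1 measured 119 and 126 CPM in the mutant and 200.3, 246 and 153 CPM in wild type (log2 fold change -0.71, SE 0.25, FDR 0.364). The genotypes did not overlap in either gene, as in 29.4% of all genes tested. Without mutant replicate 1, which left 1 mutant library, the log2 fold change of Cyr61 was -0.98.

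Ctgf measured 145 and 69.9 CPM in the mutant and 276, 156 and 116 CPM in wild type, and Cyr61 188 and 101 CPM against 219, 184 and 173 CPM. Yap1 measured 66.6 and 91.9 CPM against 94.4, 107 and 76.2 CPM, and Wwtr1 224 and 142 CPM against 234, 219.5 and 174 CPM. In each of these the mutant values overlapped those of wild type. Wisp2 measured 32.7 and 10.9 CPM against 8.98, 17.2 and 8.96 CPM, and Ankrd1 1.55 and 5.76 CPM against 0, 1.06 and 1.48 CPM. Ankrd1, at few counts, was thus higher in both mutant libraries than in all wild-type libraries (log2 fold change 2.17, SE 1.26, FDR 0.505), and Wisp2 overlapped. No listed pathway gene passed the FDR threshold by edgeR, and at an unadjusted p under 0.05 between 2 and 6 genes of each list did, against 11.5% of all genes. Of 18 SRF and contractile genes 5 were lower and 1 higher at an unadjusted p under 0.05, among them Acta2 at 411 CPM in the mutant and 1314 CPM in wild type (log2 fold change -1.68, FDR 0.262). Acta2 is also a marker of smooth muscle. Of 8 mural and smooth muscle markers 3 were lower at that p, with sums of 2452 and 2192 CPM against 4325, 2885 and 3072 CPM. The part of these cells in the Acta2 values was not tested. Of 15 Hippo core genes 4 were lower at that p, with the kinase Lats2 at 38.8 against 100.02 CPM (log2 fold change -1.36, FDR 0.261).

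In spiny mouse dermis 7 of the 10 genes differed between PWD21 and PWD0, where 26.2% of 14481 genes tested passed (12% higher and 14.2% lower). Nov, Wisp1, Wwtr1 and Amotl2 were higher at PWD21, and Ctgf, Wisp2 and Ankrd1 were lower. In 8 of the 10 genes the libraries of the days did not overlap, against 67.7% of all genes. The CCN genes thus divided, with Nov 31.1-fold higher and Ctgf 2.53-fold lower. Without PWD21 replicate 1 or without PWD21 replicate 2 the count of genes passing was 4. The median log2 fold change of the 10 genes was 0.56, and that of all genes 0.03.

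Nov measured 18.7 and 48.6 CPM at PWD0, 917 CPM at PWD14, 1257 and 929 CPM at PWD21 and 333 CPM at PWD28. Every wound library was above the PWD0 libraries, and the log2 fold change at PWD21 over PWD0 was 4.96 (SE 0.48, FDR 0.000453). Wisp1 followed the same order, at 5.82 and 5.73 CPM at PWD0, 25.6 CPM at PWD14, 42.0 and 32.9 CPM at PWD21 and 9.36 CPM at PWD28, with a log2 fold change of 2.58 (SE 0.34, FDR 0.00161). Both genes kept this call whichever single library was left out.

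Ctgf fell from 472 and 478 CPM at PWD0 to 212 CPM at PWD14 and 221 and 185 CPM at PWD21, and measured 150.4 CPM at PWD28. Its log2 fold change at PWD21 over PWD0 was -1.34 (SE 0.29, FDR 0.0128), with FDRs of 0.102 and 0.161 without PWD21 replicates 1 and 2. Wisp2 measured 17.5 and 24.8 CPM at PWD0, 3.36 CPM at PWD14, 4.42 and 5.93 CPM at PWD21 and 17.5 CPM at PWD28, the last equal to a PWD0 library. The log2 fold change of Wisp2 was -2.11 (SE 0.38, FDR 0.00565, and 0.0558 without PWD21 replicate 1).

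Cyr61, which in other tissues often moves with Ctgf, did not do so clearly here. It measured 144 and 479.7 CPM at PWD0, 178 CPM at PWD14, 375 and 299.8 CPM at PWD21 and 165 CPM at PWD28. The PWD0 libraries enclosed all the others, and the log2 fold change at PWD21 was 0.07 (SE 0.45, FDR 0.927). Without PWD0 replicate 2, the higher value, the log2 fold change of Cyr61 was 0.995.

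Of the coactivators, Wwtr1 measured 42.3 and 61.4 CPM at PWD0, 19.5 CPM at PWD14, 111 and 143 CPM at PWD21 and 149 CPM at PWD28. It was lowest at PWD14 and at PWD21 above both PWD0 libraries, with a log2 fold change of 1.21 (SE 0.29, FDR 0.018), and FDRs of 0.0526 and 0.15 without PWD21 replicates 1 and 2. Yap1 had the same order at smaller distances, with 17.3 and 22.5 CPM at PWD0, 13.4 CPM at PWD14, 26.1 and 41.6 CPM at PWD21 and 40.8 CPM at PWD28 (log2 fold change 0.68, SE 0.34, FDR 0.171). Piezo1 measured 49.4 and 69.1 CPM at PWD0, 35.0 CPM at PWD14, 57.9 and 113 CPM at PWD21 and 109 CPM at PWD28. All 3 genes had their lowest value in the single PWD14 library.

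The targets moved apart. Amotl2 measured 22.2 and 36.2 CPM at PWD0, 81.2 CPM at PWD14, 85.5 and 115 CPM at PWD21 and 76.8 CPM at PWD28. All wound libraries were above PWD0, with a log2 fold change at PWD21 of 1.70 (SE 0.31, FDR 0.0064, and 0.0582 without PWD21 replicate 2). Ankrd1 measured 24.5 and 48.9 CPM at PWD0, 9.95 CPM at PWD14, 8.16 and 2.65 CPM at PWD21 and 3.02 CPM at PWD28, all wound libraries being below PWD0, with a log2 fold change of -2.85 (SE 0.54, FDR 0.00724).

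The PWD14 dermis library has no replicate, and its contrasts came from a single fit of all 12 spiny mouse libraries in which it was assumed to vary like the others. Against PWD0, 6 of the 10 genes passed, where 26.6% of 15942 genes did (11.9% higher and 14.7% lower). Nov (log2 fold change 5.03, SE 0.44), Wisp1 (2.38, SE 0.56) and Amotl2 (1.72, SE 0.30) were higher at PWD14, and Ctgf (-0.94, SE 0.27), Wisp2 (-2.41, SE 0.61) and Wwtr1 (-1.16, SE 0.31) were lower. The FDR of Ctgf, 0.0274, was 0.0543 and 0.0508 without epidermis PWD21 replicates 1 and 2, which enter the common estimate of the spread, and that of Wwtr1 was 0.0654 without dermis PWD0 replicate 2. Between PWD14 and PWD21 1 of the 10 genes passed, against 17.3% of all genes, and this was Wwtr1 (log2 fold change 2.44, SE 0.33, FDR 0.00722). Library size in place of TMM moved the median log2 fold change of all genes by -0.24 in the former comparison and 0.26 in the latter.

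Markers of other cell types also differed between PWD0 and wound dermis. The keratinocyte markers summed to 9867 and 8327 CPM at PWD0 and 902 and 1597 CPM at PWD21, with 11 of 14 lower at PWD21. Of the skeletal muscle markers 8 of 11 tested were lower and of the adipocyte markers 6 of 6, while 6 of 15 fibroblast markers were higher, with sums of 111280 and 75724 CPM at PWD0 and 136852 and 171501 CPM at PWD21. Of 8 mural and smooth muscle markers 2 were lower and 0 higher. Their sums were 3497 and 10494 CPM at PWD0 and 4230 and 3491 CPM at PWD21. Of 10 endothelial markers 4 were higher, and of 10 leukocyte markers 1. Ankrd1 is known from muscle. Low alignment quality took 60.5% and 55.2% of the dermis reads at PWD0 and 44.8% and 38.0% at PWD21. Reads on genes numbered 5669760 and 6804714 at PWD0 and 21927269 and 34751956 at PWD21. The part of these cell types, of read quality and of depth in the dermis values was not tested.

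The pathway lists are set against the 26.2% of all genes that passed, 12% higher and 14.2% lower. Of 12 tested TEAD genes and cofactors 8 were higher at PWD21 and none lower by edgeR, such as Vgll3 (49.0 against 8.58 CPM, log2 fold change 2.44, FDR 0.00341) and Limd1 (45.6 against 10.9 CPM, log2 fold change 1.99, FDR 0.00757). Of 15 Hippo core genes 7 were higher, with Wwc2 at a log2 fold change of 2.03 and Frmd6 at 1.96. The YAP target signature divided, with 5 of 18 higher, such as Arhgef17 (1.92) and Myof (1.69), and 3 lower, F3 (-3.94), Gadd45a (-2.15) and Nuak2 (-1.31). Of 18 SRF and contractile genes 2 were higher, Cnn2 (1.48) and Tpm4 (0.94), and 4 lower, among them Actg2 (-3.06) and Cnn1 (-2.998). Cnn1 is also 1 of the mural and smooth muscle markers, and the part of these cells in the contractile gene values was not tested. Of 11 other channels 2 were higher, Piezo2 and Pkd2 (1.97), and 1 lower, Tmem63a (-0.94). Piezo2, the touch channel, was at 180 against 23.1 CPM (log2 fold change 2.88, FDR 0.000656).

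**Figure D3:**
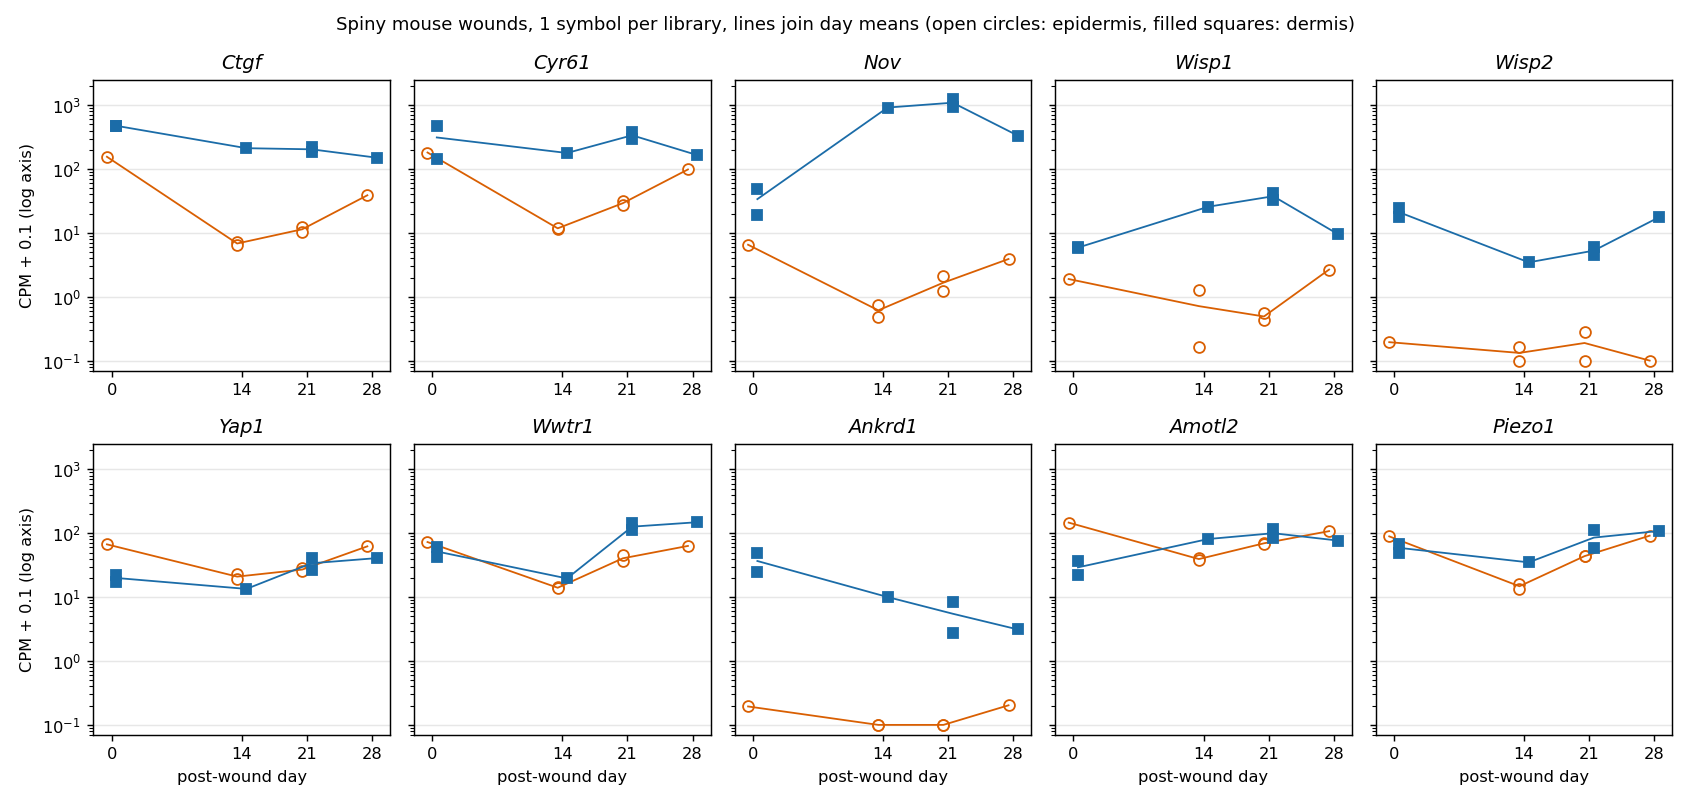
CPM of the 10 genes in each spiny mouse library by post-wound day, plotted as CPM + 0.1 on a log axis, with lines joining the day means. Open circles are epidermis and filled squares dermis. Nov rises from at most 48.6 CPM at PWD0 to at least 917 CPM at PWD14 and PWD21 in dermis, while in epidermis Ctgf, Cyr61 and Nov have their lowest values at PWD14.

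In spiny mouse epidermis most of the genes had their lowest CPM at PWD14. With TMM factors, which CPM do not carry, the differences from PWD21 were smaller. The log2 fold change of PWD14 over PWD21 was then -0.22 for Ctgf and 0.18 for Yap1, and 3 of 7 genes tested passed. Against the single PWD0 library, 7 of the 10 genes were lower at PWD14 and none higher, in the fit of all 12 libraries, where 35.4% of 15942 genes passed in either direction, 16.2% higher and 19.2% lower. The largest differences were those of Ctgf (log2 fold change -3.82, SE 0.26, FDR 7.45e-05) and Cyr61 (-3.24, SE 0.47, FDR 0.000809). With 1 library at PWD0, its own variation could not be estimated. Library size in place of TMM moved the median log2 fold change of all genes by -0.71 here, and the 7 genes remained lower with both scalings.

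Marker sums and read quality differed between these days too. The keratinocyte markers summed to 56765 CPM at PWD0, 113071 and 107047 CPM at PWD14, 92473 and 88428 CPM at PWD21 and 44669 CPM at PWD28, with 3 of 14 higher and 3 lower at PWD14 than at PWD0. The skeletal muscle markers summed to 139 CPM at PWD0 and 25.4 and 29.1 CPM at PWD14. Of the adipocyte markers Fabp4 alone was higher at PWD14 (6302 and 5159 CPM against 27.9 CPM), while Cidec and Pparg were lower and Adipoq stayed at or under 0.513 CPM in all 6 libraries. Low alignment quality took 59.5% and 59.6% of the reads at PWD14 and 50.8% at PWD0. The part of these differences in the values of the 10 genes was not tested.

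Ctgf measured 156 CPM at PWD0, 7.05 and 6.38 CPM at PWD14, 12.3 and 10.3 CPM at PWD21 and 38.7 CPM at PWD28. Cyr61 measured 181 CPM at PWD0, 11.5 and 11.8 CPM at PWD14, 30.9 and 27.2 CPM at PWD21 and 98.3 CPM at PWD28. In CPM, without TMM factors, both genes followed the order PWD14, PWD21, PWD28 and PWD0 from low to high without overlap. Nov had the same order, with 6.42 CPM at PWD0, 0.388 and 0.638 CPM at PWD14, 1.98 and 1.14 CPM at PWD21 and 3.80 CPM at PWD28 (log2 fold change of PWD14 over PWD0 -2.90, SE 0.60).

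Wwtr1 measured 72.9 CPM at PWD0, 14.1 and 13.8 CPM at PWD14, 36.1 and 44.9 CPM at PWD21 and 63.3 CPM at PWD28 (PWD14 over PWD0 -1.67, SE 0.29). Piezo1 measured 89.4 CPM at PWD0, 16.0 and 13.5 CPM at PWD14, 44.0 and 43.6 CPM at PWD21 and 91.7 CPM at PWD28 (-1.88, SE 0.38). At PWD28 both were close to their PWD0 values. Amotl2 measured 147, 41.0 and 37.8, 71.6 and 67.7, and 108 CPM at these days (-1.18, SE 0.30, with an FDR of 0.0624 without PWD14 replicate 2). Yap1 measured 67.0, 22.6 and 19.2, 28.3 and 25.6, and 62.4 CPM (-0.96, SE 0.34, FDR 0.0475). That of Yap1 rose to 0.0797 and 0.169 without PWD14 replicates 1 and 2, to 0.0677 and 0.0773 without PWD21 replicates 1 and 2, and to between 0.0521 and 0.0595 by DESeq2, with RLE factors or without the low-count filter.

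Wisp1, Wisp2 and Ankrd1 were near or under the limit of detection in this layer. Wisp1 ranged from 0.0638 to 2.57 CPM and Wisp2 from 0 to 0.177 CPM over the 6 libraries. Ankrd1 was at 0 in the 4 libraries of PWD14 and PWD21 and had 1 count each at PWD0 and PWD28.

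Between PWD14 and PWD21, the comparison with 2 libraries on each side, 3 of the 7 genes tested were lower at PWD14 and none higher, where 46.6% of 12889 genes passed in either direction, 23.4% higher and 23.2% lower, so that the share of the 7 was close to this background. In all 7 the days did not overlap, as in 80.3% of all genes. Piezo1 (log2 fold change -1.03, SE 0.21, FDR 0.00232), Wwtr1 (-0.98, SE 0.21, FDR 0.00325) and Cyr61 (-0.77, SE 0.22, FDR 0.0142) passed. The FDR of Cyr61 was 0.143 without PWD21 replicate 1 and 0.161 in the fit of all 12 libraries. The other 4 did not pass, Ctgf at -0.22 (SE 0.28), Nov at -1.12 (SE 0.65), Amotl2 at -0.27 (SE 0.18) and Yap1 at 0.18 (SE 0.21). The TMM factors mattered here. With library size alone the median log2 fold change of all genes moved by -0.55, 6 of the 7 genes passed, all lower, and Yap1 turned to -0.37 without passing. The split of all genes passing went from 3011 higher and 2991 lower to 1335 higher and 5721 lower.

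The pathway lists in this layer are set against the 46.6% of all genes that passed. Of 15 Hippo core genes 2 were higher at PWD14 than at PWD21, Map4k4 (0.84) and Taok3 (0.77), and 2 lower, Frmd6 (-1.61) and Mob1a (-1.35). Of 16 tested YAP targets 2 were higher, Gadd45a (1.71) and Igfbp3 (0.85), and 2 lower, Myof (-1.09) and Nuak2 (-1.04). Of the TEAD genes and cofactors, 5 of 11 TEAD genes and cofactors were lower at PWD14 than at PWD21 and 1 higher, with Vgll3 at 9.13 against 51.0 CPM (log2 fold change -1.91) and Vgll4 at 5.73 against 18.5 CPM (-1.13). Of 16 SRF and contractile genes 7 were higher and 2 lower, with Tpm2 at 282 against 76.7 CPM (2.44) and Fhl2 at 143 against 52.0 CPM (1.996). Of the 10 other channels tested 4 were lower, such as Piezo2 (-1.82) and Trpv4 (-1.28), and 1 was higher, Kcnk2 (1.62). All these genes had an FDR under 0.05 by edgeR.

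**Figure D4:**
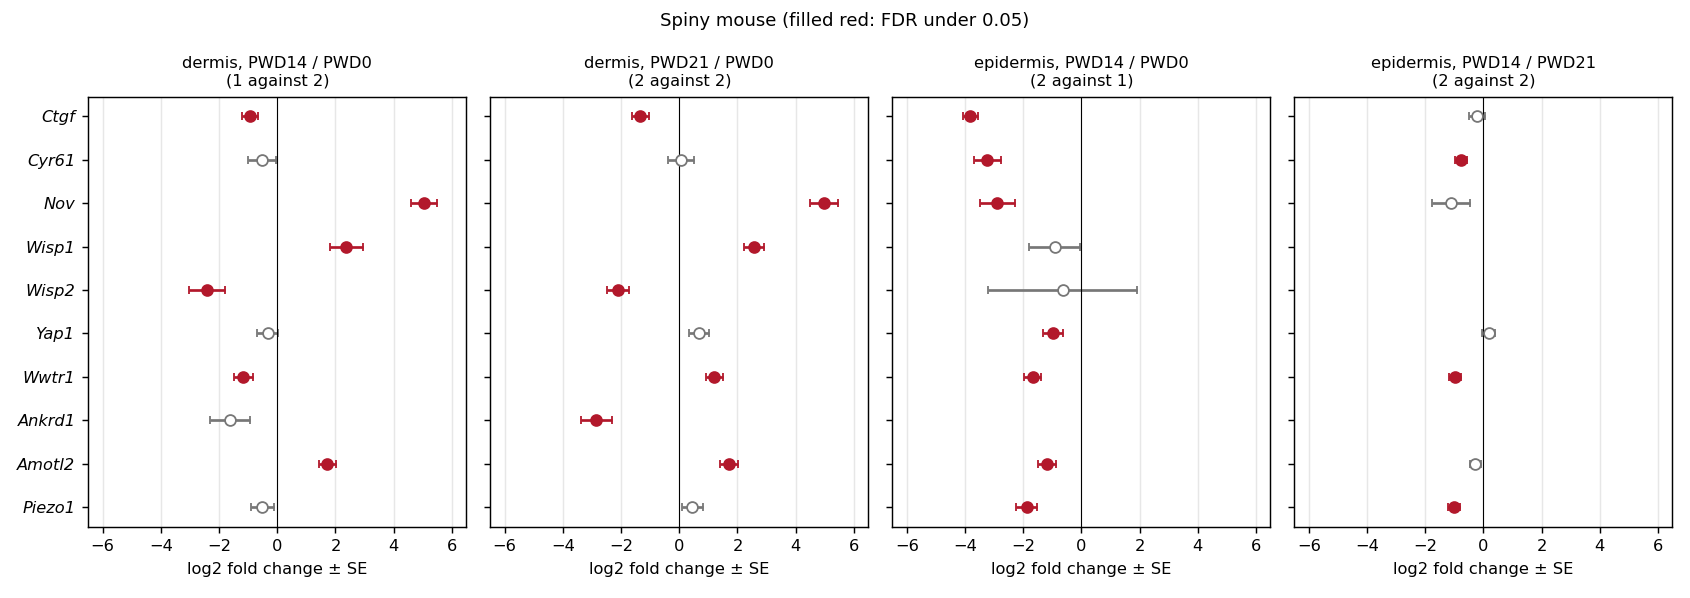
Log2 fold change with its standard error (edgeR) of each gene in 4 spiny mouse comparisons. Filled red points passed an FDR of 0.05, and genes with too few counts or with a day at 0 have no point. In dermis Nov, Wisp1 and Amotl2 lie above 0 and Ctgf and Wisp2 below it at both wound days, and in epidermis every filled point lies below 0.

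The layers were compared with each other in the laboratory mouse wound center (2 epidermis and 5 wild-type dermis libraries), in its margin (2 and 2) and in the spiny mouse at PWD21 (2 and 2). All 5 CCN genes were lower in epidermis in each of the 3 comparisons. Of the 10 genes, 7 passed in the center, where 51.8% of 15017 genes did (26.8% higher and 25% lower in epidermis). In the margin 6 of the 9 tested passed, where 47.7% of 14964 did (20.9% higher and 26.8% lower), and in the spiny mouse 7 passed, where 62.9% of 14966 did (29.4% higher and 33.5% lower). The layers did not overlap in 8, 8 and 9 of the genes, against 60.2%, 79.0% and 82.3% of all genes, so that most of these shares stood near the background. Laboratory mouse epidermis was sequenced in pairs of reads and dermis in single reads, and layer and read type cannot be told apart there. Both layers of the spiny mouse had single reads.

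In the laboratory mouse center Nov was 158-fold lower in epidermis (log2 fold change -7.30, SE 0.80), Ctgf -6.19 (SE 0.95), Wisp2 -5.08 (SE 0.69), Wisp1 -4.19 (SE 0.21) and Cyr61 -1.46 (SE 0.35) on the log2 scale. In the margin the difference of Cyr61 was -3.98 (SE 0.36) and that of Wisp1 -7.78 (SE 0.49), and those of Ctgf and Nov were -6.92 (SE 0.54) and -7.40 (SE 0.57). Wisp2 was at 0 in both margin epidermis libraries and thus at least 282-fold lower than in margin dermis by CPM, against 3 counts per library, or at least 158-fold with the TMM factors that the other folds carry. In the spiny mouse at PWD21 the log2 fold changes were -9.26 (SE 0.42) for Nov, -6.49 (SE 0.33) for Wisp1, -5.32 (SE 0.67) for Wisp2, -4.04 (SE 0.23) for Ctgf and -3.41 (SE 0.23) for Cyr61. The largest FDR among the CCN genes was 0.00658, that of Cyr61 in the center, which was 0.075 without epidermis center replicate 1.

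The coactivators and the channel were expressed in both layers. Yap1 was higher in epidermis in the laboratory mouse center (log2 fold change 1.45, SE 0.18, FDR 0.000157) and margin (0.96, SE 0.30, FDR 0.0219, and 0.184 and 0.221 without dermis margin replicates 1 and 2), and its layers overlapped in the spiny mouse (-0.21, SE 0.28). Wwtr1 had log2 fold changes of -0.46 (SE 0.20, FDR 0.0812) and -0.69 (SE 0.32, FDR 0.0958) in the laboratory mouse, and in the spiny mouse it was lower in epidermis (-1.54, SE 0.22, FDR 0.000708). Piezo1 had -0.13 (SE 0.26), 0.01 (SE 0.31) and -0.85 (SE 0.33, FDR 0.052) in the 3 comparisons. Amotl2 was higher in center epidermis (1.05, SE 0.29, FDR 0.0149), with FDRs of 0.0905 and 0.0639 without epidermis center replicates 1 and 2. Ankrd1 was at 0 in both spiny mouse epidermis libraries of PWD21 and thus at least 31.6-fold lower than the mean of dermis by CPM, or 15.5-fold and 47.7-fold lower than the single dermis libraries.

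Scaling bears on these layer values. Library size in place of TMM moved the median log2 fold change of all genes by -0.72 in the center, -0.82 in the margin and -0.12 in the spiny mouse. With it Amotl2 in the center fell to 0.32 (FDR 0.392) and Yap1 in the margin to 0.12 (FDR 0.72), while Amotl2 and Piezo1 in the margin turned to -0.40 and -0.82. The 5 CCN genes stayed lower in epidermis with either scaling.

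**Figure D5:**
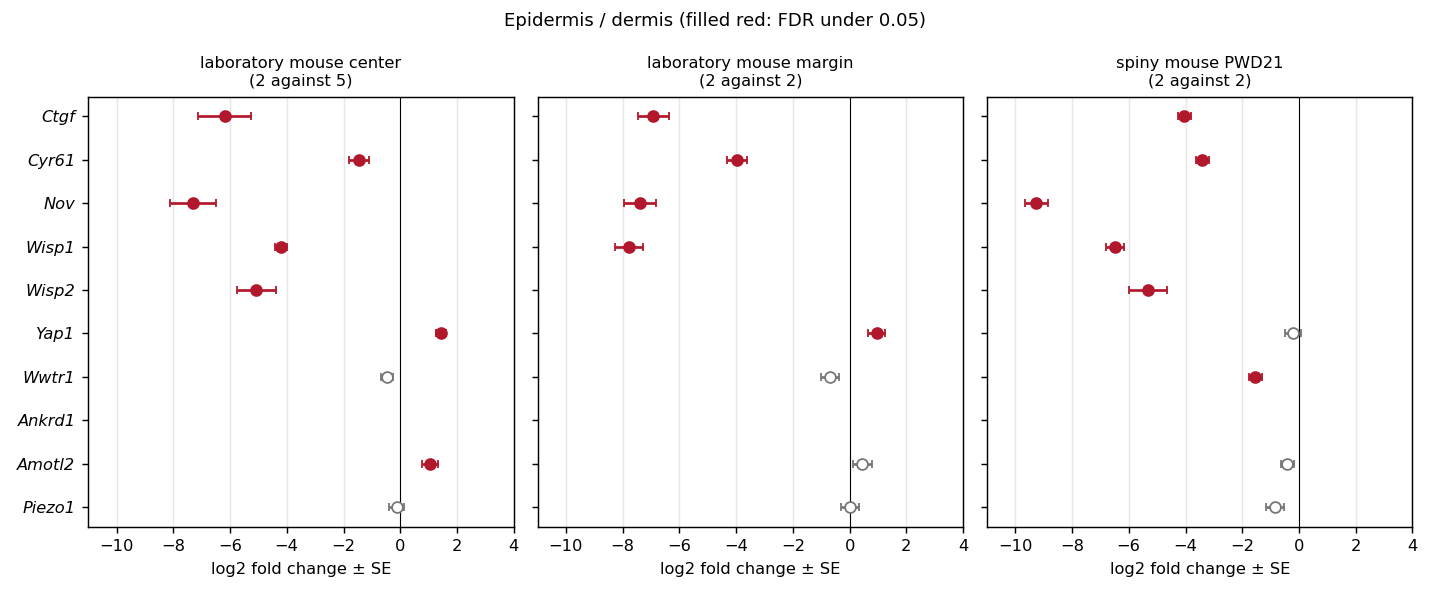
Log2 fold change of epidermis over dermis with its standard error (edgeR) for each gene in 3 comparisons. Filled red points passed an FDR of 0.05, and genes at 0 in epidermis have no point. The CCN genes lie between -1.46 and -9.26, and Yap1 is the gene with filled points above 0 in both laboratory mouse comparisons.

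Levels were compared between genes only in the laboratory mouse and per length, as CPM per kilobase of exon. In center dermis Cyr61 stood highest at 98.0 ± 33.0 (SD, n = 5), followed by Wwtr1 at 47.8 ± 7.65, Wisp1 at 46.4 ± 2.97 and Ctgf at 45.4 ± 32.9, which lay within their spread of each other. Nov followed at 23.1 ± 13.5, Piezo1 at 17.7 ± 4.71, Amotl2 at 13.7 ± 4.29, Yap1 at 9.45 ± 1.44, Wisp2 at 6.81 ± 2.70 and Ankrd1 at 0.511 ± 0.690. In margin dermis Nov was first at 113 ± 69.7 (SD, n = 2), ahead of Cyr61 at 62.5 ± 0.126 and Wwtr1 at 61.9 ± 7.88, all within the spread of Nov. In center epidermis Cyr61 (21.5 ± 7.45), Wwtr1 (21.0 ± 0.6003), Amotl2 (17.1 ± 0.885) and Yap1 (15.6 ± 0.437) led, and in margin epidermis Wwtr1 (21.3 ± 3.83) and Yap1 (14.1 ± 0.189), with Cyr61 at 2.23 ± 0.0984 (SD, n = 2 each). The coactivator Wwtr1 was thus above Yap1 per length in all 4 places. By CPM alone Yap1 was above Wwtr1 in epidermis, at means of 145 against 101 CPM in the center and 131 against 102 CPM in the margin. The order there depends on the lengths used, 9257 bases for Yap1 and 4779 for Wwtr1, each the union of all GENCODE exons.

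The remaining CCN gene, Wisp3, was near 0 in the laboratory mouse, with at most 0.403 CPM in any library. In the spiny mouse Wisp3 measured 0.620 to 1.94 CPM in epidermis and 0.683 to 4.12 CPM in dermis, the latter highest in the PWD14 library. Since the reads came from another species, part of these counts could be reads of similar genes, which was not tested.

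Likeness of pattern was described over the 25 libraries, as the Pearson correlation of log2(CPM + 0.5) after the mean of each species and layer was subtracted, for the 7736 genes whose mean reached 5 CPM in all 4 sets. The libraries share sequencing depth, species and layer, and replicates of a group lie together, so these correlations carry no test. Nearest to Cyr61 were Axl (r = 0.87), Ppp2r5b (0.87) and Limk1 (0.85), to Ctgf Pbxip1 (0.83), to Nov Cpe (0.87) and to Wisp1 Gli3 (0.85) and Col5a1 (0.84). Nearest to Wwtr1 were Pds5a (0.97), Csnk1g1 (0.95) and Mob1a (0.94), to Yap1 Arnt (0.92) and to Piezo1 Ubr4 (0.96). Ankrd1 had no gene above 0.74. Among the 10 genes, Yap1 and Wwtr1 (0.84), Yap1 and Piezo1 (0.75), Cyr61 and Piezo1 (0.74) and Wwtr1 and Piezo1 (0.73) were the most alike.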

How the data were processed

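Polyadenylated RNA of separated epidermis and dermis was sequenced by the study in 25 libraries (13 laboratory mouse, 12 spiny mouse). Laboratory mouse libraries were strand-specific, paired-end for epidermis and single-end for dermis, and spiny mouse libraries were single-end without strand. The authors aligned the reads of both species to mm10 with STAR and deposited raw counts per gene symbol from HTSeq 0.6.0, 24500 symbols and 5 summary lines per file (the submitters' processing notes name STAR 2.4.1d). The summary lines were left out of library sizes. In spiny mouse libraries 24.4% to 52.9% of counted reads fell on genes, against 57.7% to 69.8% in the laboratory mouse.

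CPM was calculated here from all gene rows. Contrasts were fitted to the counts with edgeR 4.0.16 in R 4.3.3 (TMM factors, filterByExpr, quasi-likelihood test, prior count 0.125), with Benjamini-Hochberg adjustment over all genes tested (FDR threshold 0.05). Standard errors were derived from the F statistic. Each comparison used its own libraries, except those with a single library in a group, which were fitted over all 12 spiny mouse libraries, and the interaction over the 8 libraries it concerns. The division of wild-type center dermis into sets followed the library names in the study's supplementary material. The days of spiny mouse libraries are those of the labels, and the study's supplementary material gives slightly different days for the wound libraries. The fit was tested on simulated data. Alternatives were RLE factors, library size alone, no low-count filter, DESeq2 1.42.0, a common fit of a species, all 5 wild-type center libraries, leaving out each library, and, added after seeing the data, the quasi-likelihood estimate of edgeR 3.

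The 10 genes and all lists were chosen with earlier results of these data known. All 10 genes were named, and of each pathway list those with the largest change among genes passing the FDR threshold (or an unadjusted p under 0.05 where none did) and a mean of at least 1 CPM, up to 3 in each direction. A gene list and a gene named by the rule for likeness are not reported here.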

Additional observations from a re-analysis of the deposited data

Results flagged for a closer look

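Differences between the layers in their center-margin contrast stood out for 2 of the 10 genes, both by the interaction term of edgeR. The log2 fold change of center over margin was higher in epidermis than in dermis by 2.52 for Cyr61 and by 3.60 for Wisp1. In epidermis both center libraries were above both margin libraries for each gene, and in dermis the regions overlapped for each. A sample far from the others was looked for in the only wild-type group of over 3 libraries, center dermis, 1 test for each of the 10 genes, and 0 were found.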

How the results depend on the processing

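Over the 12 comparisons, 48 results of single genes passed the FDR threshold. Leaving out each library gave 319 values for them, of which 290 kept direction and call, 29 lost the call and 0 turned, and of 288 values under the other alternatives 278 kept both, 10 lost the call and 0 turned. A group left with 1 library was assumed to vary like the others. The cause of the changes below was not tested.

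No paired analysis was possible because the labels number libraries and not animals. Whether the groups compared share animals is thus not known.

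The number of the 10 genes that passed changed as follows. In epidermis center over margin it was 0 by edgeR 3 and 3 by DESeq2. In dermis center over margin it was 1 by DESeq2, with all 5 center libraries and in the common fit, and for the genotypes 1 by DESeq2. The interaction gave 1 with RLE factors and 3 by DESeq2. Spiny mouse epidermis PWD14 over PWD21 gave 6 with library size alone and 2 in the common fit, and spiny mouse dermis PWD21 over PWD14 gave 2 by DESeq2 and 3 with library size alone. Between layers it was 8 in the center with library size alone, by DESeq2 and with the first set of dermis libraries, and 8 in the spiny mouse under all alternatives but edgeR 3. Spiny mouse epidermis PWD14 over PWD0 gave 6 with RLE factors, without the filter and by DESeq2. Without single libraries the numbers ranged from 0 to 5 in epidermis center over margin, 0 to 1 in dermis, 0 to 4 for the genotypes and 1 to 2 for the interaction. Between layers they ranged from 5 to 8 in the center, 5 to 7 in the margin and 7 to 10 in the spiny mouse. In spiny mouse dermis they were 5 to 7 (PWD14 over PWD0), 4 to 8 (PWD21 over PWD0) and 1 to 3 (PWD21 over PWD14), and in spiny mouse epidermis 5 to 7 (PWD14 over PWD0) and 2 to 4 (PWD14 over PWD21).

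All genes passing numbered 176 in epidermis center over margin (1511 by DESeq2, 397 in the common fit, 0 by edgeR 3), 125 in dermis (738 by DESeq2, 323 with all 5 center libraries, 54 by edgeR 3) and 8 between the genotypes (787 by DESeq2, 190 with all 5 wild-type libraries, 27 without K14-Cre-Twist1 replicate 2).

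Log2 fold changes that turned had not passed the test. In dermis center over margin Ctgf turned to 1.04 in the common fit and 1.08 with all 5 center libraries, and Amotl2 to -0.020 with library size alone. In epidermis Wwtr1 turned to 0.026 in the common fit. Between layers Piezo1 turned to 0.26 in the center with the first set of dermis libraries. In the margin it turned to -0.074 with RLE factors, -0.82 with library size alone, -0.075 by DESeq2 and -0.022 in the common fit, and Amotl2 to -0.40 with library size alone. In the spiny mouse Yap1 turned to -0.37 in epidermis PWD14 over PWD21 with library size alone, and Nov in dermis PWD21 over PWD14 to 0.25 with library size alone and 0.0039 without the filter. In the interaction Nov turned to 0.14 and Piezo1 to -0.10 with all 5 center libraries, and Wwtr1 to -0.046 with RLE factors and -0.049 by DESeq2.

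Without single libraries, values that turned ranged in epidermis center over margin from -0.020 to 0.13 for Yap1 and -0.34 to 0.15 for Wwtr1. In dermis they ranged from -1.03 to 0.043 for Ctgf, -0.25 to 0.026 for Wwtr1, -0.61 to 0.54 for Amotl2 and -7.41 to 8.64 for Ankrd1, where a group was left at 0. Between genotypes they ranged from -0.98 to 0.0039 for Cyr61, -0.12 to 1.56 for Wisp2 and -0.60 to 0.13 for Wwtr1. Between layers Piezo1 ranged from -0.23 to 0.011 in the center and -0.31 to 0.20 in the margin, and Yap1 from -0.56 to 0.21 in the spiny mouse. In spiny mouse dermis Cyr61 ranged from -0.47 to 0.99 and Piezo1 from -0.14 to 0.90 (PWD21 over PWD0), Cyr61 from -1.10 to 0.43 (PWD14 over PWD0), and Nov from -0.21 to 0.15 and Amotl2 from -0.23 to 0.28 (PWD21 over PWD14). In epidermis PWD14 over PWD0 Wisp1 ranged from -4.02 to 0.13 and Wisp2 from -3.62 to 0.11. In the interaction Nov ranged from -1.45 to 0.072, Wwtr1 from -0.12 to 0.36 and Ankrd1 from -9.06 to 7.76.

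Depth limited the low genes: Ankrd1 in every epidermis group and laboratory mouse dermis, and Wisp1 and Wisp2 in spiny mouse epidermis.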
